A study of Homo sapiens with 2 samples.

Results

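The genes described here encode the subunits of the proteasome, the factors that switch it on or off, and the chaperones that assemble it. They were taken by name, as every gene whose symbol is PSMA to PSMG followed by a number, plus POMP, which gave 49 of 56544 named genes. RNA was sequenced from HGC-27, a human gastric cancer cell line labelled as undifferentiated, grown in RPMI with serum and treated for 48 h with a peptide in PDPA micelles. The control library is from cells that received a control peptide. The SOS library is from cells that received the test peptide, named SOS in the sample titles and SHAP in the series title. With 1 library on each side there is no measure of spread between cultures, so nothing was tested and all values describe these 2 libraries. Levels are FPKM, a fragment count scaled for transcript length and library size, and a direction is the one the 2 column headers give. The log2 ratio in the authors' deposited table has the opposite sign, control over SOS; were the headers swapped instead, all directions below would be reversed. Epithelial marker genes were near absent in both libraries, as given at the end.

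The proteasome is the protease that degrades most short-lived and damaged proteins of the cytosol and nucleus, after they have been tagged with ubiquitin. Its 20S core is a barrel of alpha rings, which gate the entrance, around beta rings, which hold the cutting sites. The 19S cap binds tagged proteins, removes the ubiquitin, unfolds them with a ring of ATPases and feeds them into the core. Inducible beta subunits can replace the constitutive cutting subunits to form the immunoproteasome, and other caps and an inhibitor compete with the 19S cap for the ends of the barrel. Genes of the core and cap are known to be raised together by the transcription factor NFE2L1, which acts at elements that share the letters TGACNNNGC, and NF-Y is known to bind CCAAT boxes in many of their promoters.

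Promoter sequences are shown for the constitutive 20S and 19S subunits that hold the letters TGACNNNGC, for the activator pair PSME1 and PSME2, whose levels part company below, and for PSMD5, the member that was higher in SOS. Each run is the 250 bases before the RefSeq transcription start on GRCh38.p14, read 5′ to 3′ on the gene's strand, and the capitals mark the match to TGACNNNGC. The regions are chr17:38752491-38752740, plus strand for PSMB3, chr17:39980557-39980806, plus strand for PSMD3, chr17:67366578-67366827, minus strand for PSMD12, chr14:24135944-24136193, plus strand for PSME1, chr14:24146611-24146860, minus strand for PSME2 and chr9:120842923-120843172, minus strand for PSMD5.
PSMB3: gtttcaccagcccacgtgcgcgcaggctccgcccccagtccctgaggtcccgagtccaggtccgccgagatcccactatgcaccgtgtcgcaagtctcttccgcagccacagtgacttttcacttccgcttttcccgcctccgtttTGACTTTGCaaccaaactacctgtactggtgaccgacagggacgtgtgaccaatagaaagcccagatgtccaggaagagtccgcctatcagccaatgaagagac
PSMD3: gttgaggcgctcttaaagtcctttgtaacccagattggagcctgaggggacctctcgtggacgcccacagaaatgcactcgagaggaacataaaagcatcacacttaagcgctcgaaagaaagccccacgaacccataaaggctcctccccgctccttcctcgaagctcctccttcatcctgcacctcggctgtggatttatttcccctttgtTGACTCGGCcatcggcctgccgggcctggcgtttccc
PSMD12: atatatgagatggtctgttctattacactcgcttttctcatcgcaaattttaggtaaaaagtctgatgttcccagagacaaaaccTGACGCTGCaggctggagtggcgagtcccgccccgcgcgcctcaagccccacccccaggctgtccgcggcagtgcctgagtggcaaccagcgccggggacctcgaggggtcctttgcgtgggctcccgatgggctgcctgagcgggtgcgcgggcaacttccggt
PSME1: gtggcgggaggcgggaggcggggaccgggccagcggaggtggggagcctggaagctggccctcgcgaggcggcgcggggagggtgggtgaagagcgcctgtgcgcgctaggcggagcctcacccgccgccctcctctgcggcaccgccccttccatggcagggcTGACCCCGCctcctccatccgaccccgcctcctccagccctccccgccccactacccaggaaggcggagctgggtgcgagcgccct
PSME2: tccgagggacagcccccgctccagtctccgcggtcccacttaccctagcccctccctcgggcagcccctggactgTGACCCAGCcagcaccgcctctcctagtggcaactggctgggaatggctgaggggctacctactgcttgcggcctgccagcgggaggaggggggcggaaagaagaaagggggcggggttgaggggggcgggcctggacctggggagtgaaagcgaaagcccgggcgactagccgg
PSMD5: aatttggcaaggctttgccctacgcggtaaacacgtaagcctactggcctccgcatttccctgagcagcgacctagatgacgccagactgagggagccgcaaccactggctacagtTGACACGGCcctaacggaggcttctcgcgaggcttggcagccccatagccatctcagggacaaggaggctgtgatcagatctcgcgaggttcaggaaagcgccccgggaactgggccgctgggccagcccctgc
Of the 49 genes 43 matched a promoter in the table, without PSMA7, PSMB1, PSMB6, PSMB7, PSMD4 and PSMG3, and the first listed start was used where a gene had more than 1. The match begins 104 bases before the start in PSMB3, 37 in PSMD3, 165 in PSMD12, 86 in PSME1, 175 in PSME2 and 134 in PSMD5. On either strand, TGACNNNGC stood in 11 of the 43 promoters (25.6%), against 10.9% of all 35116 promoters in the table and 12% of those of 9691 genes tested here. The box CCAAT stood in 18 (41.9%), against 32% and 35.5%, and CCGGAAG, the core letters of an ETS site, in 11 (25.6%), against 8.52% and 16.4%. GAANNTTC, the core letters of a heat shock element, stood in 0 of 43, against 5.78% and 3.99%. Among the 27 matched 20S and 19S subunits, leaving out the inducible ones, 13 held CCAAT and 3 held TGACNNNGC. Of the promoters of tested genes 35.5% and 12% did, so for TGACNNNGC these subunits were near the share of all tested genes. Of the inducible subunits PSMB9 held TGACNNNGC too, on the minus strand of the gene, 148 bases before the start. A match of letters is a description of the sequence.

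Nearly all proteasome genes were lower in the SOS library as deposited, most but not all of them by similar amounts. Of the 49 members, 48 reached an FPKM of 1 in either library, and 47 of these had a log2 ratio below 0, where 54.1% of all 14288 genes tested had one. The ratio is log2((SOS FPKM + 1)/(control FPKM + 1)). The median over the 48 was -0.60, against -0.05 over all genes, and the middle of the distribution ran from -0.72 to -0.45 (quartiles). The whole range was from -0.88 to 0.56. Summed over these members, FPKM was 6444 in control and 4332 in SOS, 1.49-fold lower. None of the 48 reached a 2-fold difference on this scale, a log2 ratio of 1 in either direction, while 1.64% of all genes were lower and 3.74% higher by as much. At the smaller size of 0.5, chosen after the data were seen, 32 of 48 were lower, against 14.8% of all genes, and 1 was higher, PSMD5, against 14.6%. PSMB11, the thymus-specific catalytic subunit, is listed at 0 in both libraries.

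**Figure D1:**
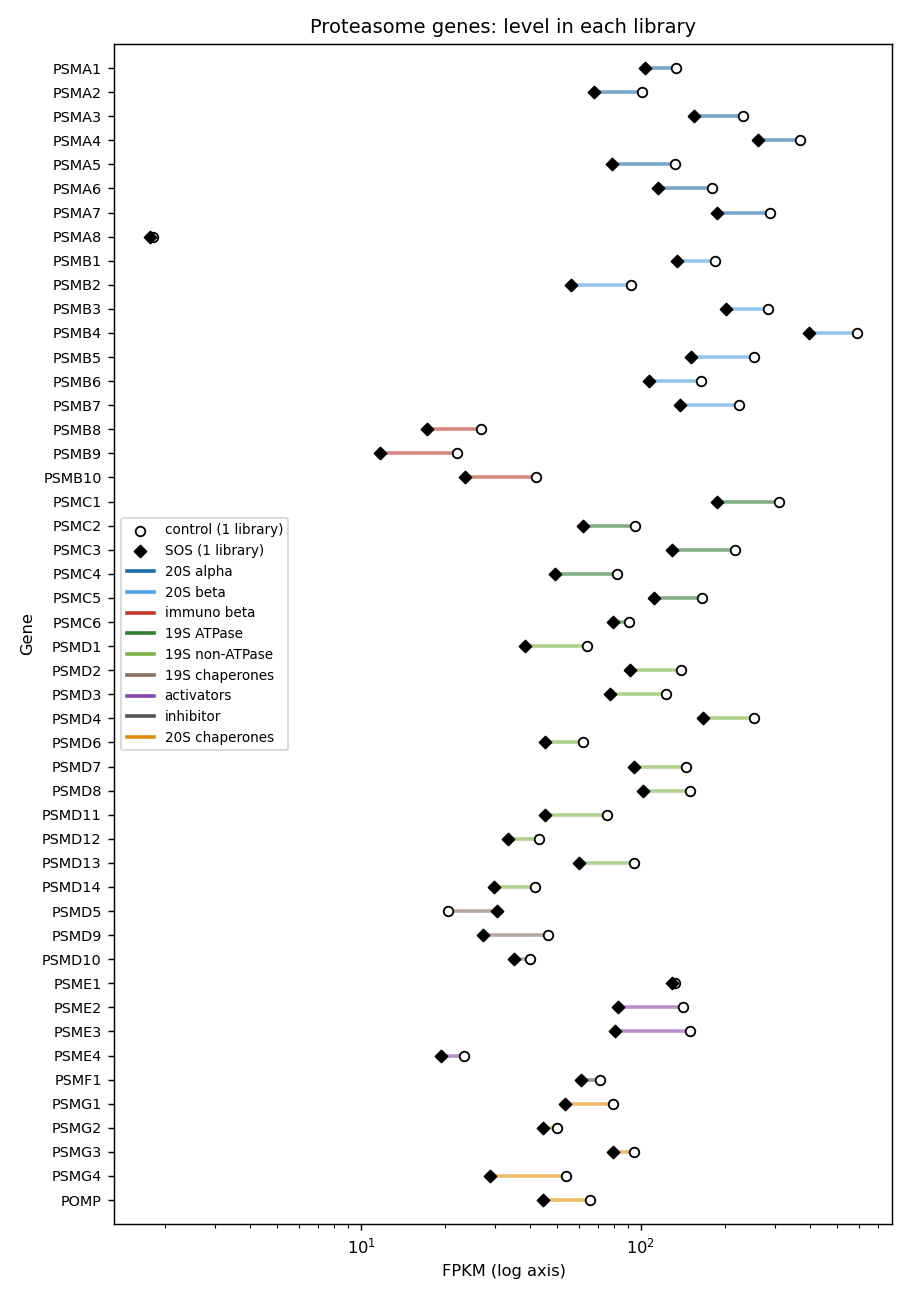
FPKM of 48 proteasome genes on a log axis, with open circles for the control library, diamonds for the SOS library and lines coloured by structural group. The diamond lies to the left of the circle for 47 genes, and PSMD5 is the exception.

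The size of the difference depends on how the libraries are scaled. The summed FPKM of all entries was 887007 in control and 758565 in SOS, and genes of the mitochondrial genome held 10.2% and 18% of it. Scaling to an equal sum moved the median of all genes from -0.05 to 0.16 and that of the proteasome members from -0.60 to -0.37. Of the 48 members 42 stayed below 0, where 36.4% of all genes were. Scaled to the same sum outside the mitochondrial genome, the medians were 0.28 and -0.24. There 39 members were below 0, against 26.1% of all genes. Relative to the median of all genes the members stood at -0.55 as deposited, -0.53 and -0.52, with 45, 46 and 46 of 48 below that median. Level also moved with the ratio: split by mean level into 5 equal strata, genes had a median of 0.22 in the lowest and -0.34 in the highest, and the highest held 42 of the 48 members. Those 42 were all below 0, where 81.9% of the genes in that stratum were. Their median was -0.60, 36 of them were below -0.34, where 50% of the stratum lies by definition, and 29 were lower by at least 0.5, against 30.8% of it. In bulk RNA, fewer cells with a transcript and less of it per cell cannot be told apart.

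**Figure D2:**
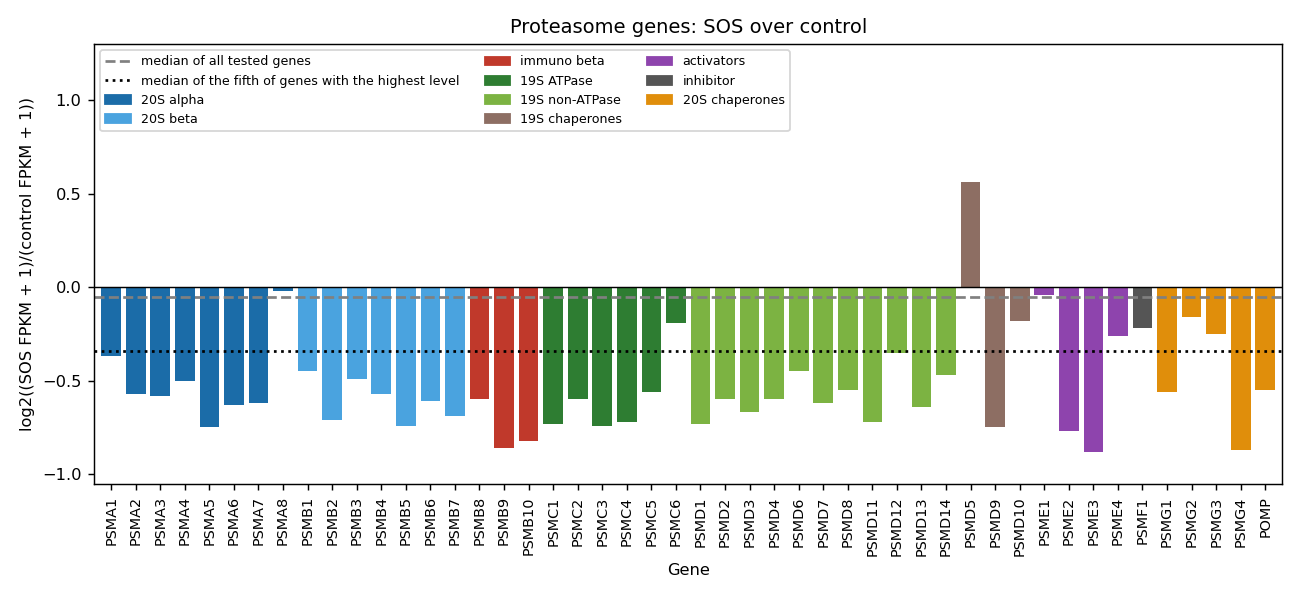
log2 ratio of SOS over control, with 1 added to both FPKM, for each of 48 proteasome genes, coloured by structural group. The dashed line is the median of all tested genes (-0.05) and the dotted line that of the fifth with the highest level (-0.34), and the quartiles of the bars are -0.72 and -0.45.

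The constitutive 20S core was lower in SOS as deposited and under both scalings to equal sums, with PSMA8 as the exception. With PSMA8 included, its median was -0.58 as deposited, -0.35 with equal sums and -0.22 scaled outside the mitochondrial genome. Under that last scaling PSMA1 was near level, at -0.01. Values that follow are as deposited. Leaving aside PSMA8, a testis subunit at 1.81 in control and 1.76 in SOS, the 7 alpha subunits had a median log2 ratio of -0.58, within -0.75 and -0.37. PSMA5 had the lowest alpha ratio, with an FPKM of 132.7 in control against 78.7 in SOS. PSMA1 had the highest, with 133.5 against 103.4. PSMA4, the most abundant alpha subunit, was at 368.9 and 261.2, and PSMA2, the least abundant, at 101.2 and 68. The remaining alpha subunits, PSMA3, PSMA6 and PSMA7, lay between 179.9 and 288.4 in control and were 1.49-, 1.56- and 1.54-fold lower in SOS. PSMA2 shares exons with the locus AC010132.3 on the same strand, listed at 73.5 and 55, so the split of reads between them is uncertain.

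The 7 constitutive beta subunits had a median of -0.61. Of the 3 that cut, PSMB5, with the chymotrypsin-like site, had 253.6 in control against 151.4 in SOS, a 1.68-fold difference. PSMB7, with the trypsin-like site, was at 223.1 and 138.3, 1.61-fold lower, and PSMB6, with the caspase-like site, at 164.1 and 106.9, 1.53-fold lower. The subunits that do not cut were between 1.37- and 1.64-fold lower. PSMB2, at 92.2 and 56.1, was the least abundant of the 7 and 1.64-fold lower, and PSMB4, at 591.6 and 397.9, the most abundant of all members and 1.49-fold lower. PSMB3 (1.41-fold) and PSMB1 (1.37-fold) differed least. Levels in FPKM are per length and can be set side by side: among the 7 beta subunits the highest was 6.42 times the lowest in control and 7.09 times in SOS, and among the 7 alpha subunits 3.65 and 3.84 times. The span from the lowest to the highest subunit within a library was therefore larger than the difference of each subunit between libraries. The order from PSMB4 down to PSMB2 was kept at both ends. Single subunits could lie closer: PSMB5 and PSMB7, at 253.6 and 223.1 in control, each differed by more between libraries.

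The inducible catalytic subunits of the immunoproteasome, which interferon is known to raise, were present at lower levels and were lower in SOS too. PSMB9 (chromosome 6, 32844136 to 32859585, GRCh38), which replaces PSMB6, had 22.1 in control against 11.7 in SOS, 1.89-fold less, the largest plain fold of any member. PSMB10 (chromosome 16, 67934502 to 67937087), which replaces PSMB7, was at 42.3 and 23.6, 1.8-fold lower. PSMB8, which replaces PSMB5, was at 26.8 and 17.2, 1.55-fold lower. Their median log2 ratio was -0.82. Set against its constitutive partner, PSMB9 made 11.9% of the pair's FPKM in control and 9.87% in SOS, PSMB10 15.9% and 14.6%, and PSMB8 9.54% and 10.2%. PSMB9 and PSMB10 therefore differed by more than their partners and PSMB8 by less. PSMB8 and PSMB9 overlap in exons on opposite strands, and whether the libraries kept strand is not given in the sources used here. PSMB9 also shares exon positions on the same strand with PSMB8-AS1, at 1.25 in control and 2.08 in SOS. PSMB10 shares them on the same strand with AC040162.1, at 1.92 and 0.673. For these overlaps the split of reads is uncertain even if strand was kept. In the authors' deposited table PSMB9 and PSMB10 were the 2 of 48 members marked as significant, a mark that 5.94% of all genes carried. Their log2 ratios of control over SOS there were 1.11 and 1.128, and PSME3, at 0.9729, was not marked. These ratios hold a median offset of 0.152 toward control. Without it, and turned to SOS over control, PSMB9 and PSMB10 were at -0.96 and -0.98.

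**Figure D3:**
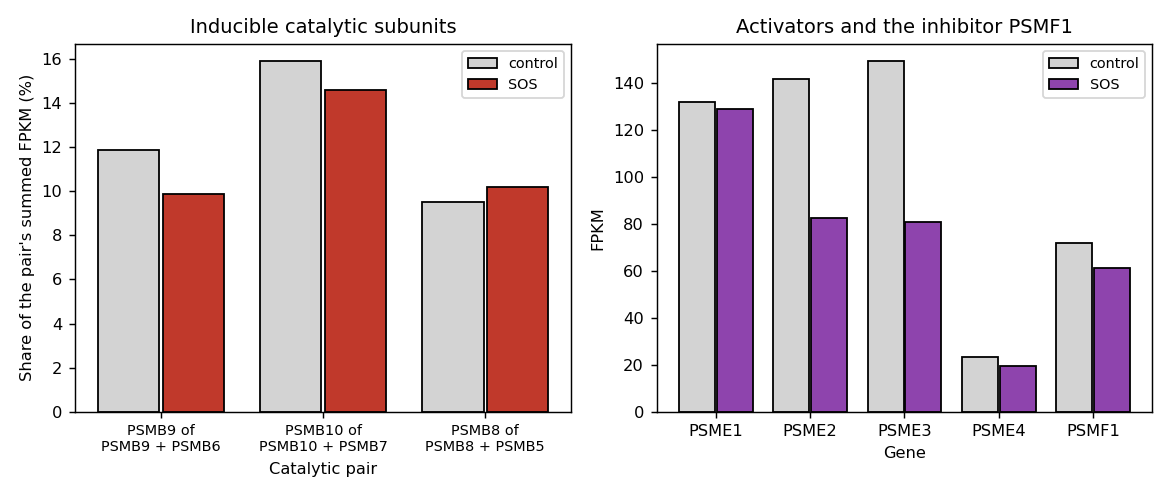
Left, the inducible subunit's share of the summed FPKM of each catalytic pair in the control and SOS libraries, between 9.54% and 15.9%. Right, FPKM of the 4 activators and of PSMF1, where PSME1 stood at 132 and 128.8 while PSME2 and PSME3 stood at 82.5 and 80.7 in SOS.

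The ATPase ring of the 19S cap had a median of -0.66 as deposited, -0.44 with equal sums and -0.31 scaled outside the mitochondrial genome. As deposited 5 of the 6 genes were lower by 0.5 or more, against 14.8% of all genes and 30.8% of the stratum with the highest level, and under the last scaling none was. PSMC3 was at 216.3 in control and 129.4 in SOS, PSMC4 at 81.9 and 49.2, and PSMC1, the most abundant, at 312 and 187.6, between 1.66- and 1.67-fold lower. PSMC2 (94.9 and 62.3) and PSMC5 (165.2 and 111.5) were 1.52- and 1.48-fold lower. PSMC6 stood apart at 90.8 and 79.6, a log2 ratio of -0.19 that came to 0.04 with equal sums. PSMC1 has processed copies elsewhere in the genome, and 2 of 30 pseudogenes named after members reached 5% of their parent in either library, both of them copies of PSMC1. PSMC1P1 was at 19.2 and 13.4. PSMC1P5 was at 2.39 in control and 39 in SOS, and its log2 ratio in the authors' deposited table was exactly 0, which its FPKM do not give. Summed over the 3 loci, FPKM was 333.6 and 240, 1.39-fold lower.

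All 11 non-ATPase subunits of the cap were lower as deposited and under both scalings. As deposited, 54.1% of all genes and 81.9% of the stratum with the highest level, which held these subunits, were below 0. The median was -0.60 as deposited, -0.38 with equal sums and -0.25 scaled outside the mitochondrial genome. Under that last scaling PSMD12 was near level, at -0.01. The base of the cap holds large scaffold subunits and ubiquitin receptors. PSMD1 had 64.4 in control against 38.5 in SOS (1.67-fold less), PSMD2 at 139.2 and 91.5 (1.52-fold) and the ubiquitin receptor PSMD4 at 253.1 and 167 (1.52-fold). In the lid, PSMD14, the enzyme that cuts ubiquitin chains from the substrate, was at 41.7 and 29.8 (1.4-fold), and PSMD7, its partner, at 144.9 and 94.2 (1.54-fold). PSMD11, a lid scaffold, was at 75.7 and 45.6 (1.66-fold), PSMD3 at 123.3 and 77.3 (1.59-fold) and PSMD13 at 94.2 and 60.1 (1.57-fold). PSMD8 (150.2 and 102), PSMD6 (62.3 and 45.5) and PSMD12 (43.2 and 33.6) were 1.47-, 1.37- and 1.29-fold lower, PSMD12 differing least of the 11. Of these, PSMD3 and PSMD12 hold TGACNNNGC in the promoters printed above.

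Chaperones that assemble the 19S base were the least uniform group. PSMD9 had 46.4 in control against 27.2 in SOS, 1.71-fold less. PSMD10, known as gankyrin, was at 40.2 and 35.2, a log2 ratio of -0.18 that came to 0.04 with equal sums. PSMD5 (chromosome 9, 120815496 to 120842984) was at 20.4 and 30.7, 1.5-fold higher in SOS with a log2 ratio of 0.56. It was higher in SOS under each of the settings tried. The log2 ratio in the authors' deposited table, reversed in sign and freed of its offset, gave 0.54, although its adjusted p there was 0.2367. The chaperones of the 20S core were lower as deposited in 5 of 5 cases. All of them lie in the stratum with the highest level, where 81.9% of genes were below 0, so this count is near that share. PSMG2 (-0.16) and PSMG3 (-0.25) were above the stratum's median of -0.34. POMP, which guides the beta ring and is itself the first substrate of the finished core, was at 65.9 and 44.7, 1.48-fold lower. PSMG1 and PSMG2 act as a pair on the alpha ring and were at 79.4 and 53.7 and at 50 and 44.8. PSMG3 and PSMG4 form the other pair and were at 94.3 and 79.2 and at 53.8 and 29. In each pair 1 partner was lower by more than the other: the level of PSMG1 over PSMG2 was 1.59 in control and 1.2 in SOS, and that of PSMG3 over PSMG4 was 1.75 and 2.73. PSMG4 shares exon positions with TUBB2B on the opposite strand, listed at 215 in control and 184.7 in SOS. The level of PSMG4 is therefore uncertain if the libraries did not keep strand. PSMG2 turned positive with equal sums (0.07), and PSMG3 did so scaled outside the mitochondrial genome (0.10). The log2 ratio in the authors' deposited table, reversed and freed of its offset, put PSMG4 at -0.57 where FPKM gave -0.87.

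Activators and the inhibitor ranged widely. PSME1 and PSME2 encode the partners of a ring-shaped cap that is known to rise with interferon, and their genes lie close together on chromosome 14. PSME1 (24136158 to 24138967) was at 132 in control and 128.8 in SOS. PSME2 (24143362 to 24147570) was at 141.5 and 82.5, 1.71-fold lower. PSME1 stood at 0.933 times PSME2 in control and at 1.56 times in SOS. The log2 ratio in the authors' deposited table, reversed in sign and freed of its offset, gave -0.08 for PSME1 and -0.48 for PSME2, where FPKM gave -0.04 and -0.77, so the gap was smaller there. PSME1 overlaps EMC9 (31.8 and 31.9) and PSME2 overlaps RNF31 (17.2 and 16.3) on the opposite strand. PSME3, a nuclear cap of the same family, had the lowest log2 ratio of the members, -0.88, at 149.1 and 80.7. It overlaps BECN1 on the other strand, at 34.8 and 28.6. PSME4, a large single-chain activator, was at 23.4 and 19.3, and PSMF1, which inhibits the core in vitro, at 71.6 and 61.1. Scaled outside the mitochondrial genome, PSME1, PSME4 and PSMF1 turned positive, at 0.32, 0.08 and 0.13.

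In all, 23 of the 49 members share exon positions with another gene, 19 of them with a gene on the opposite strand. The authors' deposited table gave an adjusted p under 0.05 to 40 of the 48 members, against 65.7% of all genes and 83.5% of the fifth with the highest level. How that p was computed is not stated, and it compares these 2 libraries and not the conditions.

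Other genes of the pathway were read beside the members. Of 12 further components and binding partners of the proteasome, 11 were below 0, with a median of -0.33 that came to 0.02 scaled outside the mitochondrial genome. ADRM1, a ubiquitin receptor of the 19S cap, had 135.9 in control against 63.6 in SOS, 2.14-fold less, and alone among them reached a log2 ratio of -1 or lower, which it lost under both scalings to equal sums. All 12 tested shuttles and unfolding factors were below 0 (median -0.41), with UFD1, a cofactor of the unfoldase VCP, at 77.2 and 45.3 and the shuttle UBQLN4 at 63.7 and 41. All 6 ubiquitin and E1 genes were below 0 (median -0.40), and RPS27A, which encodes ubiquitin fused to a ribosomal protein, had the lowest ratio, at 2215 in control and 1347 in SOS. Each of these 3 medians was near the -0.34 of the fifth of genes with the highest level.

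Regulators of proteasome genes differed less, with a median of -0.12 over 11 genes and 8 below 0, and a median of 0.10 with equal sums. TBL1X, a cofactor of transcription, was at 5.55 and 9.03, and MAFK, a partner of NFE2L1 and NFE2L2, at 12.5 and 7.87. NFE2L1 itself, chosen after its values were seen, was at 66.1 and 60.6. Of 11 genes that trim or carry peptides, 7 were below 0 (median -0.13, and 0.08 with equal sums), with the peptidases THOP1 at 196.2 and 114.8 and LAP3 at 34.1 and 24.6. Of 9 tested genes of interferon signalling 4 were below 0 (median 0.05, and -0.07 with a minimum FPKM of 5), with the kinase JAK2 at 1.91 and 3.24 and STAT2 at 12.8 and 17.1. None of the genes of these 3 lists passed a log2 ratio of 1.

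**Figure D4:**
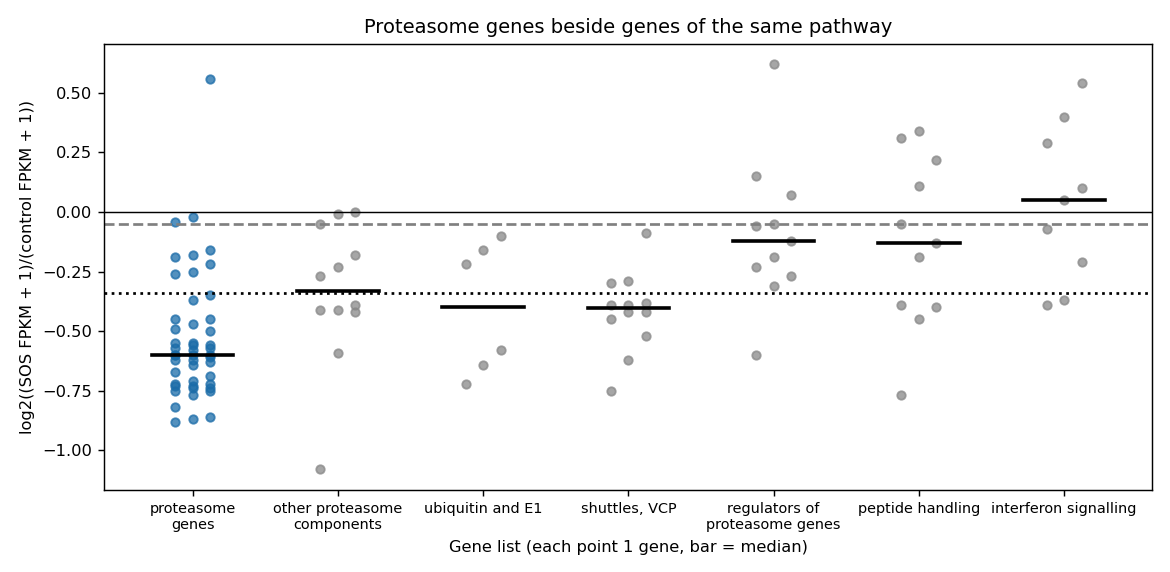
log2 ratio of SOS over control for the proteasome genes and for 6 lists of pathway genes, with 1 point per gene and a bar at each median, from -0.60 for the proteasome genes to 0.05 for interferon signalling. The dashed and dotted lines are the medians of all genes and of the fifth with the highest level.

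**Figure D5:**
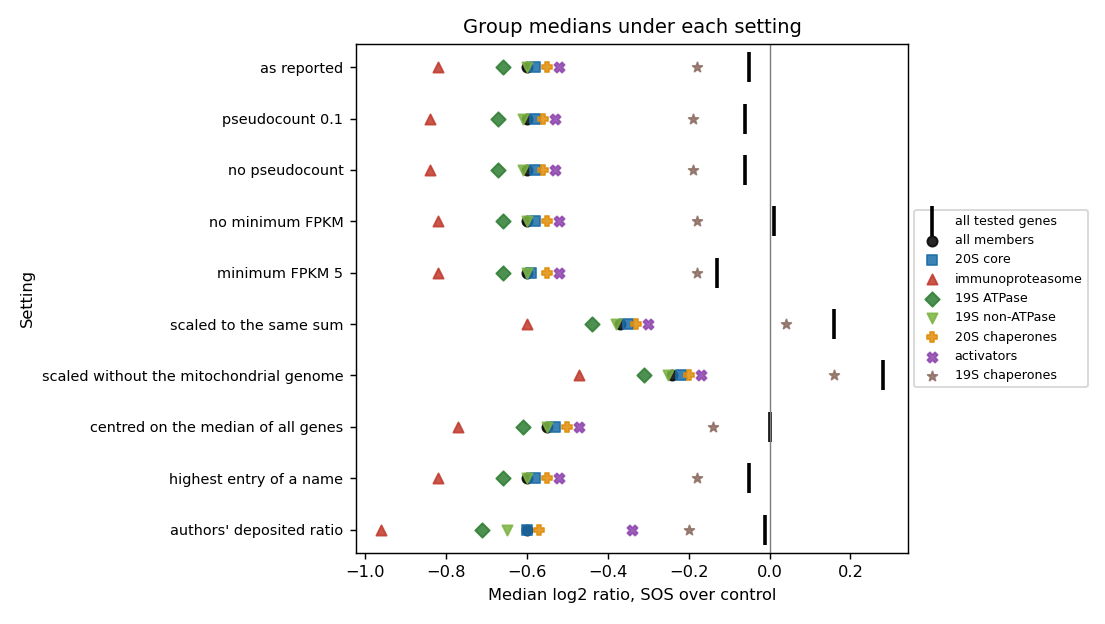
Median log2 ratio of SOS over control for structural groups of proteasome genes (symbols) and for all tested genes (vertical ticks) under each of 10 settings. The groups stay to the left of the tick in each setting, while the median of the 19S chaperones crosses 0 under both scalings to equal sums.

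Markers of cell types were read against the label. Of 10 epithelial markers 1 reached an FPKM of 1, CLDN4 at 1.2 in control and 0.616 in SOS, followed by KRT8 at 0.797 and 0.353, and MUC5AC and TFF1 were at 0 in both libraries, so defining gastric and epithelial transcripts were near absent. Of 10 mesenchymal markers 9 reached 1, with VIM at 3161 and 3140 and COL1A1 at 209.7 and 378.9. Of these 9, 8 had a log2 ratio above 0, the opposite direction to the proteasome genes, with a median of 0.62. VIM carried most of the list's summed level, which was 3802 in control and 4099 in SOS. The part of this difference in the proteasome values was not tested. Leukocytes, which express immunoproteasome subunits constitutively, left little trace: 2 of 12 markers reached 1, and the highest was CORO1A at 9.81 and 7.48, while CD3E, CD3D and MS4A1 were at 0 in both. The leukocyte list summed to 13.6 and 12.1, and the endothelial list to 0.192 and 0.172, with CDH5 and KDR at 0 in both.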

How the data were processed

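RNA of HGC-27 cells was sequenced, 1 library for each peptide, and 1 table of the series was used. Per the file headers, the authors deposited FPKM for each library, their log2 ratio, and a p-value with its adjusted p. The tools HISAT2, Cufflinks and RSEM and the build GRCh38.p10 are named, per the submitters' processing notes; no version, role or depth is stated there or in the labels, so no counting interval was computed. Of 58645 entries, 412 without a name and 27 with names turned into dates were left out, and entries of 1 name were summed. No member had more than 1 entry.

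The ratio adds a pseudocount of 1 and covers genes that reach an FPKM of 1 in at least 1 library. A log2 ratio of at least 1 was the size counted. The authors' log2 ratio was turned to SOS over control and its median offset of 0.152, taken over genes that reach FPKM 5 in both, was removed. Positions come from GENCODE release 29 on GRCh38, promoters from RefSeq on GRCh38.p14. Analysis used Python 3.11.15 and pandas 2.3.3. The ratio was run on simulated data with planted changes larger than that of any member, which checks only the calculation. Every member is named; of each pathway list, genes past the size or otherwise the 2 with the largest absolute ratio; of each marker list, the 2 highest in control; and pseudogenes at 5% of their parent or more. Some genes that this rule names are not reported here. Members and lists were chosen with earlier results of these data known. A planned comparison of protein sequences was not run, and no spread between cultures could be estimated.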

Additional observations from a re-analysis of the deposited data

How the results depend on the processing

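Directions of the members were kept with a pseudocount of 0.1, no pseudocount, no minimum FPKM, a minimum of 5, the highest entry of a name and the authors' deposited ratio. Centring moved 2 of 48 members across 0, scaling to the same sum 5 and scaling outside the mitochondrial genome 8. No member passed a log2 ratio of 1 in any setting, the authors' ratio being taken with its offset removed. With the offset kept, PSMB9 and PSMB10 were at 1.11 and 1.128, control over SOS. Of the 48 members, 32 were lower by at least 0.5 as deposited, 12 with equal sums and 3 outside the mitochondrial genome. Among all genes they were 2120 (14.8%), 875 (6.01%) and 523 (3.55%). Scaled outside the mitochondrial genome, medians were -0.24 for all members, -0.22 for the 20S core, -0.47 for the immunoproteasome, -0.31 for the 19S ATPases, -0.25 for the non-ATPases, 0.16 for the 19S chaperones, -0.20 for the 20S chaperones and -0.17 for the activators, and 0.02 for other components (with 0 past the size), 0.23 for regulators, -0.07 for shuttles, -0.04 for ubiquitin genes, 0.20 for peptide handling and 0.38 for interferon signalling. The latter was 0.37 by the authors' ratio and -0.07 with a minimum of 5. With equal sums, the medians that changed sign were 0.04 for the 19S chaperones, 0.08 for peptide handling and 0.10 for regulators, and ADRM1 left 0 components past the size. All genes past the size, 535 higher and 235 lower (69.5% higher), became 1094 and 442 with a pseudocount of 0.1, 1062 and 375 with none, 273 and 126 with a minimum of 5, 926 and 303 by the authors' ratio, 889 and 162 with equal sums (84.6%) and 1226 and 152 outside the mitochondrial genome (89%). These shifts are built into the scalings; the cause of the others was not tested. No paired analysis was possible because each group has 1 library, and none could be left out. The missing depth and the lack of replicates limit every value.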

Other observations

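Antisense genes named after members, chosen after their values were seen, did not all share the direction of the members. PSMA3-AS1 had 9.65 in control against 17 in SOS, 1.76-fold more, while PSMA3 was 1.49-fold lower. PSMD5-AS1 was at 9.61 and 20, 2.08-fold higher, beside PSMD5, which was 1.5-fold higher. PSMB8-AS1, which overlaps exons of PSMB8 and PSMB9, was at 1.25 and 2.08. PSMG3-AS1, which overlaps exons of PSMG3, was at 2.76 and 2.14. In the authors' deposited table the log2 ratios of control over SOS were -0.7139 for PSMA3-AS1 and -0.5624 for PSMD5-AS1, in the same direction as the FPKM. Both values keep the offset of 0.152 toward control. For PSMD5-AS1 the difference there was smaller than the 2.08-fold of its FPKM, with the offset kept or removed. Relative to their sense partners, PSMA3-AS1 went from 4.16% to 10.9% of the level of PSMA3 and PSMD5-AS1 from 47.1% to 65.1% of that of PSMD5.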
